A study of Mus musculus with 33 samples.

Results

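Liver tumours of 2 Hippo pathway knockout lines were compared with each other: 11 hepatocellular carcinomas labelled Sav1 -/- and 4 labelled Mst1/2 -/-, which are 15 of the 33 arrays of the study. The tumours were chosen by genotype and tissue in the labels, and every tumour array was used. The surrounding livers of the same genotypes, 7 Sav1 -/- and 3 Mst1/2 -/- samples, served to ask whether a difference between the tumours was also present outside them. The remaining 8 arrays, normal livers labelled Sav1 flox (3), Mst1/2 flox (3) and Wt (2), entered the tests only through the shared estimate of the spread. Their levels are given for some genes. The labels give no deleter strain, age, sex or animal, so whether tumours of a group came from separate mice is unknown. The p-values therefore reflect sample-to-sample variation of these arrays, part of which can be technical.

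In the Hippo pathway the kinases Mst1 and Mst2, encoded by Stk4 and Stk3, are assembled with the scaffold protein Sav1 and activate the Lats kinases. The Lats kinases in turn keep the coactivators YAP and TAZ away from the TEAD transcription factors. Loss of either component lets hepatocytes and bile duct cells grow, and liver tumours follow in mice. The comparison asks how far tumours that arise after loss of the scaffold resemble those that arise after loss of the kinases.

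Each sample had 1 Illumina bead array (MouseWG-6 v2.0). Levels below are normalized log2 signals with a floor at 5.64, where signal is the brightness of a bead probe, and a difference is the Sav1 mean minus the Mst1/2 mean ± standard error (SE). A gene passed where limma's adjusted p was under 0.05 over all 14421 genes tested. Differences of dim genes are compressed by the background correction. Median unprocessed signals of the tumour arrays ran from 89.4 to 107.6 units in Sav1 tumours and from 97.9 to 107.5 units in Mst1/2 tumours. The share of probes above background averaged 49.4% ± 5.0 (SD, n = 11) in Sav1 tumours and 50.6% ± 2.2 (SD, n = 4) in Mst1/2 tumours, with an exact permutation p of 0.649. The hepatocyte transcripts Ttr, Apoa1 and Trf lay above 15 on every tumour array of both lines. Apoa1 had 15.47 ± 0.16 (SD, n = 11) in Sav1 tumours and 15.43 ± 0.11 (SD, n = 4) in Mst1/2 tumours. The only Alb probe kept read low in both, at 7.94 ± 0.94 (SD, n = 11) in Sav1 tumours and 9.03 ± 0.29 (SD, n = 4) in Mst1/2 tumours (adjusted p = 0.105 by limma).

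The targeted transcripts did not separate the lines. The Sav1 probe had 8.43, 9.06 and 9.91 as the lowest, median and highest of the Sav1 tumours, against 9.13, 8.79, 9.51 and 9.40 in Mst1/2 tumours 1 to 4 (difference -0.16 ± 0.21, adjusted p = 0.753 by limma). The Stk4 probe had 9.29, 9.99 and 10.81 in the Sav1 tumours, against 9.96, 9.58, 9.89 and 9.82 in the Mst1/2 tumours (difference 0.30 ± 0.22, adjusted p = 0.503 by limma). For both genes the ranges of the lines overlapped. Stk3 was not analysed here. Where the probes lie with respect to the deletions is not stated, so these values do not check the labels.

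Tumours of the lines differed in 531 of 14421 genes, 3.68% of those tested, of which 197 (1.37%) were higher and 334 (2.32%) lower in Sav1 tumours. A change of at least 2-fold was reached by 65 of the higher and 133 of the lower genes. Over all genes tested, 7407 differences were positive and 7014 negative. In 168 genes (1.16%) no Sav1 tumour overlapped with any Mst1/2 tumour, and 132 of these passed the test. The largest differences were those of Igf2, Cldn6 and Psca among the lower genes and of Mup20, Mup5 and Cyp4a12a among the higher ones. Most of these genes overlapped between the lines: the Sav1 tumours varied widely, and Mst1/2 tumours 1 and 2 often stood apart from 3 and 4.

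The mean correlation of a tumour with the others of its line was 0.940 ± 0.008 (SD, n = 11) in Sav1 tumours and 0.968 ± 0.003 (SD, n = 4) in Mst1/2 tumours. These values share pairs within a line, so they were not tested. Among Sav1 tumours the pairwise correlation ran from 0.901 to 0.974. Mst1/2 tumours 1 and 2 correlated at 0.985 with each other and tumours 3 and 4 at 0.982, whereas the mean across these pairs was 0.960. The median SD of a gene was 0.357 log2 units in Sav1 tumours and 0.189 in Mst1/2 tumours, and 11500 of the 14421 genes varied more among the Sav1 tumours. The Sav1 tumours lay in 3 sets of arrays (below) and the Mst1/2 tumours in 1; the 6 Sav1 tumours of that same set correlated at 0.945 on average.

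**Figure D1:**
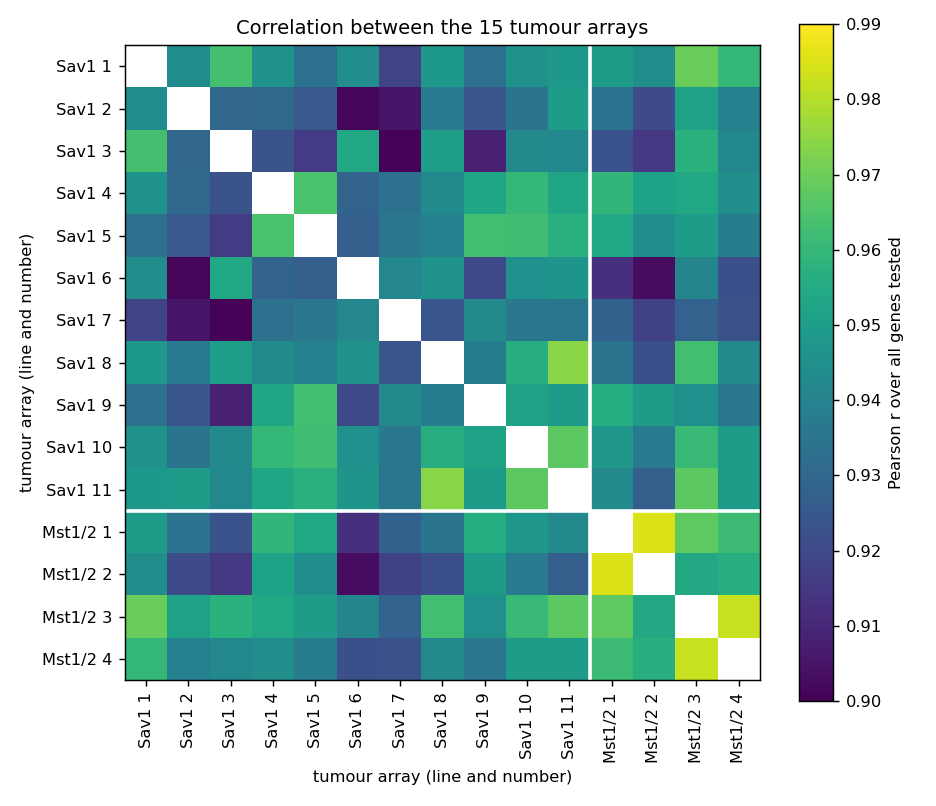
Pearson correlation over all 14421 genes between every pair of the 15 tumour arrays, with Sav1 -/- tumours 1 to 11 first and Mst1/2 -/- tumours 1 to 4 after the white lines. Mst1/2 tumours 1 and 2 (0.985) and 3 and 4 (0.982) form the brightest cells, and the Sav1 block is darker and uneven (0.901 to 0.974).

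The size of the count rested on particular arrays. All 15 tumours without the other groups gave 92 genes (0.638%), 33 higher (0.229%) and 59 lower (0.409%), of which 90 were among the 531. The median residual SD was 0.339 among the tumours and 0.306 over all 33 arrays, and over the 531 genes it was 0.415 and 0.366. Without Mst1/2 tumour 1 the count was 168, without tumour 2 it was 169, and without tumour 4 it was 290, whereas without tumour 3 it was 518. Of the 531 genes, 417 had Mst1/2 tumour 1 outside the whole Sav1 range, 434 had tumour 2, 220 had tumour 3 and 362 had tumour 4. The genes were called from these same arrays, which raises such counts, and the shares over all genes tested were not counted. The replicates are few, and a call named below as passing refers to the fit over all arrays unless stated.

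Array sets also bear on these counts. The 33 arrays were clustered by 10921 probes that no array had above background and cut into 3 sets, which the labels do not name. The number of sets was chosen and not found from the data. Sav1 tumours 1 to 3 lay in the first set, tumours 4 and 5 in the second, and tumours 6 to 11 with all Mst1/2 tumours in the third. Within the third set, 6 Sav1 tumours against 4 Mst1/2 tumours gave 779 genes (5.4%), 459 higher (3.18%) and 320 lower (2.22%), and 254 of the 531 passed there in the same direction. Sav1 tumours 6 to 11 still shared a pattern over those probes (mean correlation 0.105) that the Mst1/2 tumours did not (-0.00539 with them). The Mst1/2 tumours correlated at 0.0123 among themselves and at -0.0247 with Sav1 tumours 4 and 5. With the set as a fixed block the count was 1920, of which 497 were among the 531. The part of the array set in single differences was not tested further than by these fits.

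Cldn6 and Grb10 were lower in Sav1 tumours with no overlap between the lines. Cldn6, the tight junction protein claudin-6 of embryonic epithelia, had 6.21, 7.18 and 8.30 as the lowest, median and highest of the Sav1 tumours, against 12.22, 14.20, 9.40 and 10.33 in Mst1/2 tumours 1 to 4. Every Sav1 tumour was below every Mst1/2 tumour, and 2 Sav1 tumours were not above background. The gene was 20.9-fold lower in Sav1 tumours (difference -4.39 ± 0.53, adjusted p = 3.4e-05 by limma; adjusted p = 0.0079 in the 15 tumours alone). Grb10, an imprinted adaptor that restrains insulin and IGF receptors, had 7.74, 8.54 and 9.33 in Sav1 tumours, against 11.89, 11.51, 10.47 and 10.11 in Mst1/2 tumours. In the normal livers of the study the group means of Grb10 were 8.63 (Sav1 flox), 8.28 (Mst1/2 flox) and 9.22 (Wt). Grb10 was 5.28-fold lower in Sav1 tumours (difference -2.40 ± 0.33, adjusted p = 0.000102; a second probe differed by -0.38 ± 0.10 in the same direction).

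Igf2, the imprinted fetal growth factor, was the gene with the largest difference, -5.56 ± 1.23 (adjusted p = 0.01 by limma). All 4 Mst1/2 tumours had it near the top of the scale, at 15.04, 15.31, 15.62 and 15.54. The Sav1 tumours split: 9 lay between 7.06 and 11.20, while tumour 7 with 15.63 and tumour 9 with 15.34 matched the Mst1/2 level. The median of the 11 Sav1 tumours was 8.52. In the 15 tumours alone Igf2 did not pass (adjusted p = 0.125), nor within the third array set (adjusted p = 0.179), which holds both of those Sav1 tumours. Peg3, an imprinted zinc finger gene, had 6.32, 9.07 and 12.44 in Sav1 tumours, against 12.70, 13.21, 10.27 and 11.05 in Mst1/2 tumours (difference -2.79 ± 0.81, adjusted p = 0.0484). Its ranges overlapped, and the call was lost without any one of Sav1 tumours 3, 6, 8, 10 and 11 or Mst1/2 tumours 1, 2 and 4. Of 11 imprinted growth genes measured, 3 passed, all lower (the 3 named, 27.3%, all genes 2.32% lower), and the list's median difference was -0.10, against 0.01 over all genes.

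**Figure D2:**
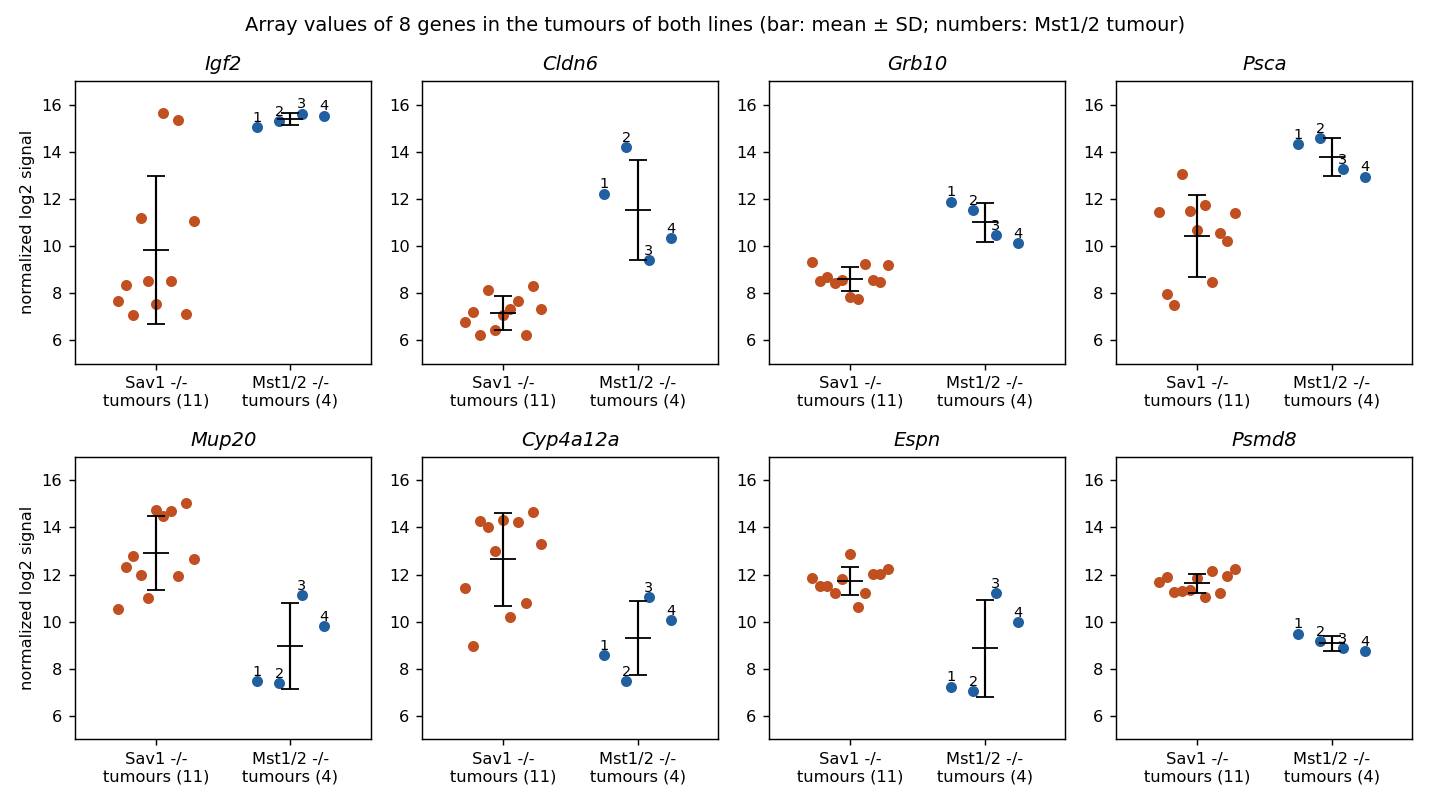
Normalized log2 signal of 8 genes in the 11 Sav1 -/- tumours (left, orange) and the 4 Mst1/2 -/- tumours (right, blue, numbered 1 to 4), with mean ± SD as black bars. Cldn6, Grb10 and Psmd8 separate the lines without overlap, Igf2 is at 15.04 or above in all Mst1/2 tumours and in Sav1 tumours 7 and 9, and Mup20, Espn and Cldn6 show Mst1/2 tumours 1 and 2 apart from 3 and 4.

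The oncofetal list, of genes ascribed to fetal liver or to liver tumours, was drawn up like the other lists with earlier results of these data known. Of 19 members measured, 6 were lower in Sav1 tumours (31.6%, all genes 2.32% lower) and 0 were higher. The list's median difference was -1.06, with 17 of 19 members negative, against 7014 of all 14421 genes. Psca, a cell surface antigen, had 7.49, 10.66 and 13.06 in Sav1 tumours, against 14.32, 14.59, 13.27 and 12.94 in Mst1/2 tumours (difference -3.37 ± 0.69, adjusted p = 0.0062). Only the highest Sav1 tumour reached the lowest Mst1/2 tumour. Afp, alpha-fetoprotein, had 6.25, 8.35 and 10.09 in Sav1 tumours, against 11.56, 12.50, 8.58 and 9.18 in Mst1/2 tumours (difference -2.43 ± 0.61, adjusted p = 0.0228). Mst1/2 tumours 1 and 2 were above every Sav1 tumour and 3 and 4 were within their range; the call was lost without tumour 1 (-2.07, adjusted p = 0.125) or tumour 2 (-1.75, adjusted p = 0.176). Tspan8, a tetraspanin, differed by -2.60 ± 0.65, Cltrn, an amino acid transporter partner, by -1.56 ± 0.25, Bex2 by -1.45 ± 0.34 and Scd2, a desaturase of the fetal liver, by -1.12 ± 0.32. Of these, Cltrn kept its call in the 15 tumours alone (adjusted p = 0.0485), and Tspan8, Bex2 and Scd2 lost theirs without Mst1/2 tumour 1 or without tumour 2. Scd2 also lost it without any one of 6 Sav1 tumours (5, 6, 7, 8, 10 and 11). The oncofetal glypican Gpc3, chosen after its value was seen, had 10.18, 12.07 and 13.62 in Sav1 tumours, against 13.32, 13.63, 13.20 and 13.77 in Mst1/2 tumours and did not pass (adjusted p = 0.0748).

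Sequences from 250 bases before to 50 after the start of a gene are shown for Cldn6 and Psmd8, which separated the lines in opposite directions, for Afp, and for 2 Mup genes that were higher together, since TEAD factors bind the motif GGAATG, whose reverse complement is CATTCC. Matches on either strand are in capitals; the sequences are from RefSeq, build GRCm38.p6, 5′ to 3′ on the gene's strand. A promoter was listed for 21 of the 28 genes with the largest differences.
Cldn6 (chr17:23679115-23679414, plus strand): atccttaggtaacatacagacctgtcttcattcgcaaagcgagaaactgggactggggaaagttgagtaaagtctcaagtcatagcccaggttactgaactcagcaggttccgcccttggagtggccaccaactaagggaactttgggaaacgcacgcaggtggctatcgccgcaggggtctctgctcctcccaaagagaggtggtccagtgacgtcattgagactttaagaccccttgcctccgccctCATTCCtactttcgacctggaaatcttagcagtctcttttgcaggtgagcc
Psmd8 (chr7:29180624-29180923, minus strand): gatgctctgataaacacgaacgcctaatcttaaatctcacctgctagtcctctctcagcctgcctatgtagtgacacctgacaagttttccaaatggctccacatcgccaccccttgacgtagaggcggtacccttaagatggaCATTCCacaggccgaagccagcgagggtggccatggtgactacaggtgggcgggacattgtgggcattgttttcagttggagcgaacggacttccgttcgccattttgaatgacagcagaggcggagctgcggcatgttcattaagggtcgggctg
Afp (chr5:90490464-90490763, plus strand): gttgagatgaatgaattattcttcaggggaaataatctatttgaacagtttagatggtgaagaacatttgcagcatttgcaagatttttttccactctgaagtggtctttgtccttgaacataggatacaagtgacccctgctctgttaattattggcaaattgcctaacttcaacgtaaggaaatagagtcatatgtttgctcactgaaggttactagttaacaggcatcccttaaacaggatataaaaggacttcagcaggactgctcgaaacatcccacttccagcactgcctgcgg
Mup6 (chr4:60003231-60003530, plus strand): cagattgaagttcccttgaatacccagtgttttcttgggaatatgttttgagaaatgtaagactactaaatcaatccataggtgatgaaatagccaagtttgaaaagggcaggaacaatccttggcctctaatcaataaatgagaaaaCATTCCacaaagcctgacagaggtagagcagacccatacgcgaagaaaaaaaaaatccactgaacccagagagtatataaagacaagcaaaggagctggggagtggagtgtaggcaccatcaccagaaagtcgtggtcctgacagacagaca
Mup21 (chr4:62150792-62151091, minus strand): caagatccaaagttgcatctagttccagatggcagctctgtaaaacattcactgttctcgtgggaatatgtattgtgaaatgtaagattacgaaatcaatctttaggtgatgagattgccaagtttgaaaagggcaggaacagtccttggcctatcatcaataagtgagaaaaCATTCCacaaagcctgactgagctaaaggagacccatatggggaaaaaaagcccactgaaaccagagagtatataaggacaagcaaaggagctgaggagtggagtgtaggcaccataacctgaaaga
The motif occurred once in 4 of these 5 windows, of which the Mup windows belong to copies of one family, and not in that of Afp. The window of Cyp2d9, also read, had no match. It was present in 17.5% of 359 promoters of genes lower in Sav1 tumours and 13.5% of 192 promoters of higher genes, against 12.9% of 14607 promoters of all genes tested and 14.7% of all 32851 listed. A match is a run of letters and does not show binding.

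Further genes among the largest differences were lower in Sav1 tumours. Tsc22d1, a leucine zipper regulator induced by TGF-beta, had 6.90, 8.38 and 9.01 in Sav1 tumours, against 10.40, 11.18, 9.87 and 10.33 in Mst1/2 tumours, with no overlap (difference -2.37 ± 0.37, adjusted p = 0.000506). Car14, a membrane carbonic anhydrase, had 5.95, 7.11 and 8.53, against 10.34, 10.92, 8.06 and 9.43 in Mst1/2 tumours (difference -2.51 ± 0.45, adjusted p = 0.0017). Mst1/2 tumour 3 lay inside the Sav1 range. Cyp2a12, a cytochrome P450, had 7.36, 11.94 and 13.44, against 13.81, 14.30, 13.83 and 14.20 in Mst1/2 tumours. The ranges were apart (difference -2.83 ± 0.80, adjusted p = 0.0415), but the call was lost when any 1 Mst1/2 tumour (adjusted p up to 0.149) or Sav1 tumour 8 or 11 was left out. Slc39a4, an intestinal and hepatic zinc importer, differed by -2.39 ± 0.57, Rps4l, a ribosomal protein gene copy, by -2.48 ± 0.53, Bex4 by -2.34 ± 0.65 and Slc23a3, of the ascorbate transporter family, by -2.34 ± 0.54. These 4 lost their calls without Mst1/2 tumour 1 or without tumour 2, and Bex4 also without Sav1 tumour 6, 8 or 11.

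The next 4 genes were chosen after their values were seen and stand for no list; Fgfr3, Evc and Evc2 lie on chromosome 5. Fgfr3, a fibroblast growth factor receptor, had 6.59, 6.84 and 8.09 in Sav1 tumours, against 8.70, 9.25, 8.24 and 9.72 in Mst1/2 tumours (difference -1.74 ± 0.28, adjusted p = 0.000695). Evc and Evc2, partners at the base of the primary cilium that transmit Hedgehog signals, differed by -1.82 ± 0.24 (adjusted p = 8.39e-05) and -1.76 ± 0.23 (adjusted p = 7.95e-05). All 3 genes had no overlap and passed in the 15 tumours alone, at adjusted p values of 0.0331, 0.0055 and 0.0055 by limma. Fgfr2 differed by -2.12 ± 0.55 (adjusted p = 0.0294) with overlap and did not pass in the tumours alone (adjusted p = 0.21).

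Genes that were higher in Sav1 tumours were led by products of the adult male liver. Major urinary proteins are small pheromone carriers that mouse liver secretes under growth hormone. Mup20 had 10.55, 12.68 and 15.02 in Sav1 tumours, against 7.47, 7.39, 11.11 and 9.82 in Mst1/2 tumours. It was 15.8-fold higher in Sav1 tumours (difference 3.98 ± 0.72, adjusted p = 0.0018; 0.0572 in the 15 tumours alone). Only Mst1/2 tumour 3 reached the Sav1 range. Mup5 differed by 3.53 ± 0.71, Mup6 by 3.18 ± 0.63 and Mup21 by 3.05 ± 0.77, and in each the Mst1/2 tumours 1 and 2 were the lowest of all 15. Mup genes are near-identical copies, so a probe may read several of them and the 4 values are not independent; a second Mup5 probe differed by 0.31 ± 0.42. Mup5 lost its call without Mst1/2 tumour 2, Mup6 without tumour 1 and Mup21 without either. In normal livers labelled Sav1 flox, Mst1/2 flox and Wt, the group means of Mup21 were 14.98, 11.10 and 15.62. They were 14.37, 13.73 and 14.94 for Mup20, 14.52, 13.42 and 14.70 for Mup5, and 15.27, 15.34 and 15.60 for Mup6. The Sav1 flox livers lay in the first array set and the other normal livers in the third.

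Cyp4a12a, a male-predominant fatty acid hydroxylase, had 8.97, 13.31 and 14.66 in Sav1 tumours, against 8.59, 7.48, 11.03 and 10.06 in Mst1/2 tumours (difference 3.36 ± 0.93, adjusted p = 0.0385). The call was lost without any one of Sav1 tumours 6, 8, 10 and 11 or Mst1/2 tumours 1, 2 and 4. Normal livers had Cyp4a12a at 15.09 (Sav1 flox), 10.86 (Mst1/2 flox) and 14.87 (Wt), so a gap was also present in livers without tumours. Surrounding livers had 13.12 (Sav1) and 13.99 (Mst1/2). Cyp2d9, a male-specific testosterone hydroxylase, had 10.59, 13.78 and 14.74, against 8.85, 8.96, 12.88 and 13.07 in Mst1/2 tumours (difference 2.56 ± 0.66, adjusted p = 0.0287). Mst1/2 tumours 3 and 4 lay inside the Sav1 range, and the call was lost without tumour 1 or tumour 2. Normal livers had Cyp2d9 at 15.11 (Sav1 flox), 13.69 (Mst1/2 flox) and 15.46 (Wt). The part of such line differences in the tumour values was not tested. Of 23 male-biased liver genes measured, 4 were higher (Mup20, Mup21, Cyp4a12a and Cyp2d9, 17.4%, all genes 1.37% higher), 0 lower and 21 positive, with a median difference of 0.54. Of 19 female-biased genes, 1 was lower (5.26%, all genes 2.32% lower) and 18 were negative, with a median of -0.19. The 1 was Nipal1, of a magnesium transporter family, which had 6.22, 7.38 and 8.36 in Sav1 tumours, against 9.33, 8.93, 8.83 and 9.09 in Mst1/2 tumours, with no overlap (difference -1.78 ± 0.42, adjusted p = 0.0157). Nipal1 passed in the 15 tumours alone (adjusted p = 0.0468) and lost its call without Mst1/2 tumour 1 or tumour 2.

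Y-linked transcripts varied among the Sav1 tumours and are given beside these lists. Eif2s3y, a Y-linked translation factor gene, had 7.51, 9.43 and 12.22 in Sav1 tumours, against 11.23, 11.02, 11.07 and 10.63 in Mst1/2 tumours. In 7 of 11 Sav1 tumours it was below the lowest Mst1/2 tumour, whereas all 7 Sav1 surrounding livers lay between 11.11 and 11.79. Kdm5d, a Y-linked histone demethylase gene, had 6.00, 6.94 and 8.36, against 8.51, 8.34, 7.56 and 7.81 in Mst1/2 tumours, and was below them in 8 of 11. Neither of these differences passed (-1.36 ± 0.54, adjusted p = 0.164; -0.89 ± 0.30, adjusted p = 0.097). Of 8 Y-linked genes tested, 1 passed (12.5%, all genes 3.68%). It was Sly, a multicopy gene of spermatids whose copies a probe cannot tell apart, named after its value was seen. Sly had 6.10, 6.42 and 8.87 in Sav1 tumours, against 9.28, 8.96, 7.79 and 7.36 in Mst1/2 tumours (difference -1.43 ± 0.37, adjusted p = 0.0282 by limma). The ranges overlapped, and Sly did not pass in the 15 tumours alone (adjusted p = 0.219 by limma). Surrounding livers averaged 6.68 (Sav1) and 6.55 (Mst1/2) for Sly, against 6.92 and 8.35 in the tumours. Every Mst1/2 tumour was above every surrounding liver, which was not so for Eif2s3y. The level of Xist, transcribed from the inactive X chromosome, lay between 6.01 and 6.48 in Sav1 tumours and between 6.08 and 6.31 in Mst1/2 tumours. The part of the Y-linked levels in the other differences was not tested.

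**Figure D3:**
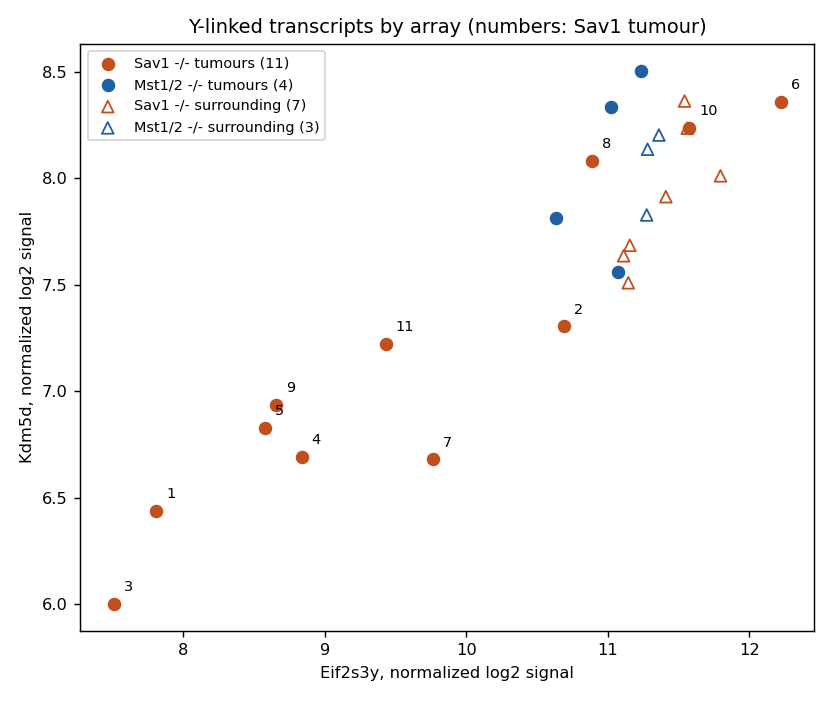
Eif2s3y (horizontal) against Kdm5d (vertical), both as normalized log2 signal, in Sav1 -/- tumours (filled orange, numbered), Mst1/2 -/- tumours (filled blue) and the surrounding livers of each line (open triangles). Surrounding livers and Mst1/2 tumours lie together at 10.63 or above for Eif2s3y, and 7 of 11 Sav1 tumours lie below that, down to 7.51.

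Metabolic enzymes and other cell machinery were among the genes higher in Sav1 than in Mst1/2 tumours by the largest differences. Psmd8, a subunit of the regulatory particle of the proteasome, had 11.05, 11.67 and 12.25 in Sav1 tumours, against 9.49, 9.18, 8.89 and 8.76 in Mst1/2 tumours. It was 5.85-fold higher with no overlap (difference 2.55 ± 0.35, adjusted p = 0.000108; 9.2e-05 in the 15 tumours alone). Me1, the cytosolic malic enzyme that supplies NADPH for fatty acid synthesis, had 6.24, 9.40 and 10.69 in Sav1 tumours, against 6.18, 6.11, 6.18 and 6.24 in Mst1/2 tumours. Its signal was not well above background in any Mst1/2 tumour and was above it in 10 of 11 Sav1 tumours, so it was at least 7.59-fold higher (adjusted p = 0.0085 by limma; 0.0244 in the tumours alone). That bound sets the Sav1 mean against the lowest signal above background in the Mst1/2 tumours. Normal livers had Me1 at 10.05 (Sav1 flox), 8.53 (Mst1/2 flox, SD 2.19) and 6.13 (Wt), so it also differed between livers without tumours. Surrounding livers had it at 8.71 (Sav1, SD 1.30) and 6.93 (Mst1/2, SD 1.46). Snx5, a sorting nexin of endosomes, had 7.22, 9.15 and 11.00, against 6.45, 6.39, 6.29 and 6.27 in Mst1/2 tumours, with no overlap (difference 2.56 ± 0.53, adjusted p = 0.0068). Its second probe differed by 1.58 ± 0.38. Among Mst1/2 tumours the first probe was above background in 1 of 4 and the second in 0 of 4, so both differences are fitted values. Normal livers had Snx5 at 7.27 (Sav1 flox), 6.14 (Mst1/2 flox) and 8.15 (Wt).

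For Adh1 and Apoc3 only Mst1/2 tumours 1 and 2 stood below the Sav1 range. Adh1, the main hepatic alcohol dehydrogenase, had 12.93, 14.36 and 15.51 in Sav1 tumours, against 9.79, 8.60, 14.62 and 14.54 in Mst1/2 tumours. Tumours 3 and 4 stood at the Sav1 level; the difference of 2.55 ± 0.65 (adjusted p = 0.0263) was 1.85 without tumour 1 (adjusted p = 0.178) and 1.45 without tumour 2 (adjusted p = 0.222). Apoc3, an apolipoprotein that slows triglyceride clearance, had the same form, with 14.67, 15.54 and 15.85 in Sav1 tumours, against 12.12, 12.29, 15.32 and 15.46 in Mst1/2 tumours (difference 1.55 ± 0.39, adjusted p = 0.023). It lost its call without tumour 1 or tumour 2. Espn, the actin-bundling protein espin of microvilli, had 10.61, 11.80 and 12.86, against 7.24, 7.05, 11.21 and 9.98 in Mst1/2 tumours (difference 2.84 ± 0.54, adjusted p = 0.0029), with tumour 4 also below the Sav1 range, and kept its call whichever tumour was left out. Its 4 kept probes did not agree, since 2 differed by 2.84 and 1.46 and 2 by 0.06 and -0.04. Atp5e, a subunit of ATP synthase, differed by 2.15 ± 0.54 (adjusted p = 0.0236), Npr2, a natriuretic peptide receptor, by 2.00 ± 0.51 (adjusted p = 0.0256) and Gvin1, an interferon-inducible GTPase, by 1.88 ± 0.44 (adjusted p = 0.0136). All 3 lost their calls without Mst1/2 tumour 1 or without tumour 2, and Atp5e also without tumour 4.

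Of the 28 genes with the largest differences, 14 in each direction, 6 had no overlap, 7 passed in the 15 tumours alone (Me1, Espn, Psmd8, Cldn6, Car14, Grb10 and Tsc22d1) and 12 within the third array set. The call was kept in all 15 fits that left out 1 tumour for 11 of them (Mup20, Me1, Espn, Snx5, Psmd8, Igf2, Cldn6, Psca, Car14, Grb10 and Tsc22d1). None changed direction in any alternative fit run.

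Few genes were above background on every tumour of one line and on none of the other, and these were dim. Pla2g4b, a cytosolic phospholipase, had 7.02, 7.41 and 7.94 in Sav1 tumours, against 6.17, 6.10, 6.19 and 6.12 in Mst1/2 tumours, at least 2.03-fold higher (adjusted p = 3.28e-05). A second Pla2g4b probe differed by 0.25 ± 0.09 and did not pass. By the probe that stood for it, Syne2, a nuclear envelope spectrin, was at least 1.53-fold higher in Sav1 tumours. Its other kept probes differed by 0.23 ± 0.11, 0.42 ± 0.23 and 0.61 ± 0.29 and did not pass. The probes with the smaller differences, 0.23 and 0.42, were above background in 2 and 1 of the Mst1/2 tumours. Zfp235 was at least 1.40-fold higher in Sav1 tumours. In the other direction, Cdh20, a cadherin, was at least 1.18-fold lower in Sav1 tumours, Morn4 at least 1.22-fold and Scnn1b, a subunit of the epithelial sodium channel, at least 1.16-fold. In normal livers, in the same order as above, Cdh20 averaged 6.05, 6.27 and 6.15, Morn4 6.43, 6.01 and 6.33, and Scnn1b 6.02, 6.13 and 6.00. All but Syne2 passed in the 15 tumours alone.

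Of 21 core Hippo components and scaffolds measured, 1 was higher and 1 lower (9.52% called, all genes 3.68%), with a median difference of -0.13. Rassf1, a scaffold that binds the Mst kinases, had 9.67, 9.88 and 10.60 in Sav1 tumours, against 9.33, 9.18, 9.66 and 9.30 in Mst1/2 tumours (difference 0.66 ± 0.18, adjusted p = 0.0328). Wwc1, the upstream scaffold Kibra, had 9.02, 10.06 and 11.12, against 11.30, 11.70, 10.61 and 10.88 in Mst1/2 tumours (difference -1.14 ± 0.28, adjusted p = 0.0229). Both lost their calls without Mst1/2 tumour 1 or tumour 2, and Rassf1 also without tumour 4. By limma, 0 of 8 YAP, TAZ and TEAD genes passed (2 at an unadjusted p under 0.05, median -0.05), as did 0 of 20 YAP/TAZ target genes (3 unadjusted, median -0.20); the YAP target Fjx1 differed by -1.60 ± 0.50 (adjusted p = 0.0664). Of 21 Wnt genes, 2 were lower in Sav1 tumours (9.52%, all genes 2.32% lower) and 0 higher. Tcf7l2, a transcription factor, differed by -0.51 ± 0.12 and Sfrp1, a secreted Wnt antagonist, by -0.48 ± 0.09, both small. The other 3 kept probes put Tcf7l2 between -0.11 and 0.12.

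Bile duct and matrix genes were lower in Sav1 tumours where they passed. Of 21 biliary and progenitor markers measured, 4 were lower (19%, all genes 2.32% lower) and 0 higher, with a median difference of -0.58. Tm4sf4, a tetraspan protein of ducts and hepatocytes, had 12.50, 13.37 and 14.49 in Sav1 tumours, against 14.81, 15.11, 14.35 and 14.57 in Mst1/2 tumours (difference -1.27 ± 0.31). A second Tm4sf4 probe differed by -0.29 ± 0.56 and did not pass. Krt7, a keratin of bile ducts, differed by -1.03 ± 0.27, St14, a membrane protease, by -1.15 ± 0.26 and Cldn7, a claudin, by -0.60 ± 0.16. Each of the 4 lost its call without Mst1/2 tumour 1 or without tumour 2. The mean level of the list ran from 7.88 to 8.95 in Sav1 tumours and from 8.81 to 9.44 in Mst1/2 tumours. Of 33 junction and cytoskeleton genes (12.1% called, all genes 3.68%), Cldn6, Cldn1 (-1.29 ± 0.32) and Cldn7 were lower and Espn was higher. In bulk tissue, fewer cells of a type and less RNA per cell cannot be told apart.

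Of 27 matrix and stellate cell genes measured, 3 were lower (11.1%, all genes 2.32% lower), 22 were negative and the median difference was -0.52. Sparc, a matrix glycoprotein, had 10.05, 11.59 and 13.44 in Sav1 tumours, against 14.07, 14.42, 12.87 and 12.85 in Mst1/2 tumours (difference -1.74 ± 0.45, adjusted p = 0.0281 by limma). Its other kept probes differed by -2.24 ± 0.47 and by -0.37 ± 0.61, and the latter did not pass. Bgn, a proteoglycan, differed by -1.60 ± 0.45 and Ngfr, a stellate cell receptor, by -0.78 ± 0.20. Sparc lost its call without Mst1/2 tumour 1 or 2, Ngfr without 3 or 4, and Bgn without any one of the 4 or Sav1 tumour 10. The mean level of the matrix list ran from 7.46 to 10.10 in Sav1 tumours and from 9.31 to 9.98 in Mst1/2 tumours. Of 6 mesothelial markers, 2 were lower (33.3%, all genes 2.32% lower). These were the uroplakin genes Upk1b (-2.11 ± 0.61, adjusted p = 0.0489 by limma) and Upk3b (-0.92 ± 0.26, adjusted p = 0.0396 by limma). Upk1b was above background in 2 of 11 Sav1 tumours and 4 of 4 Mst1/2 tumours. It lost its call in 12 of 15 fits without 1 tumour, as Upk3b did in 8. The list's mean level ran from 6.17 to 7.59 in Sav1 tumours and from 6.36 to 7.79 in Mst1/2 tumours. The part of stromal, ductal or surface cells in the other differences was not tested.

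Of the 6 lists of blood and immune cell markers, 0 members passed, in a comparison where 3.68% of all genes did. Outside them Klra3, an inhibitory receptor of NK cells named after its value was seen, had 6.24, 6.38 and 6.62 in Sav1 tumours, against 7.02, 6.89, 7.60 and 6.98 in Mst1/2 tumours (difference -0.74 ± 0.12, adjusted p = 0.0006528). The macrophage list (19 measured, median 0.27), the Kupffer cell list (9, median -0.45), the MHC class II list (9, median 0.21), the T and NK cell list (13, median 0.11), the B and plasma cell list (7, median 0.08) and the neutrophil list (12, median -0.13) had 0 members called by limma, with 5 of 69 members at an unadjusted p under 0.05. Kupffer cell markers differed within the Mst1/2 tumours: Clec4f, a lectin of these liver macrophages, had 6.15, 7.38 and 9.39 in Sav1 tumours, against 6.59, 6.61, 10.65 and 10.93 in Mst1/2 tumours. Endothelial (23 measured, median -0.15), interferon (20, 0.32), NF-kB (21, 0.03) and cell cycle genes (30, -0.12) likewise had 0 called (13 at an unadjusted p under 0.05), as had adipocyte (4), erythroid (6) and pancreatic acinar genes (8), with 1 unadjusted.

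**Figure D4:**
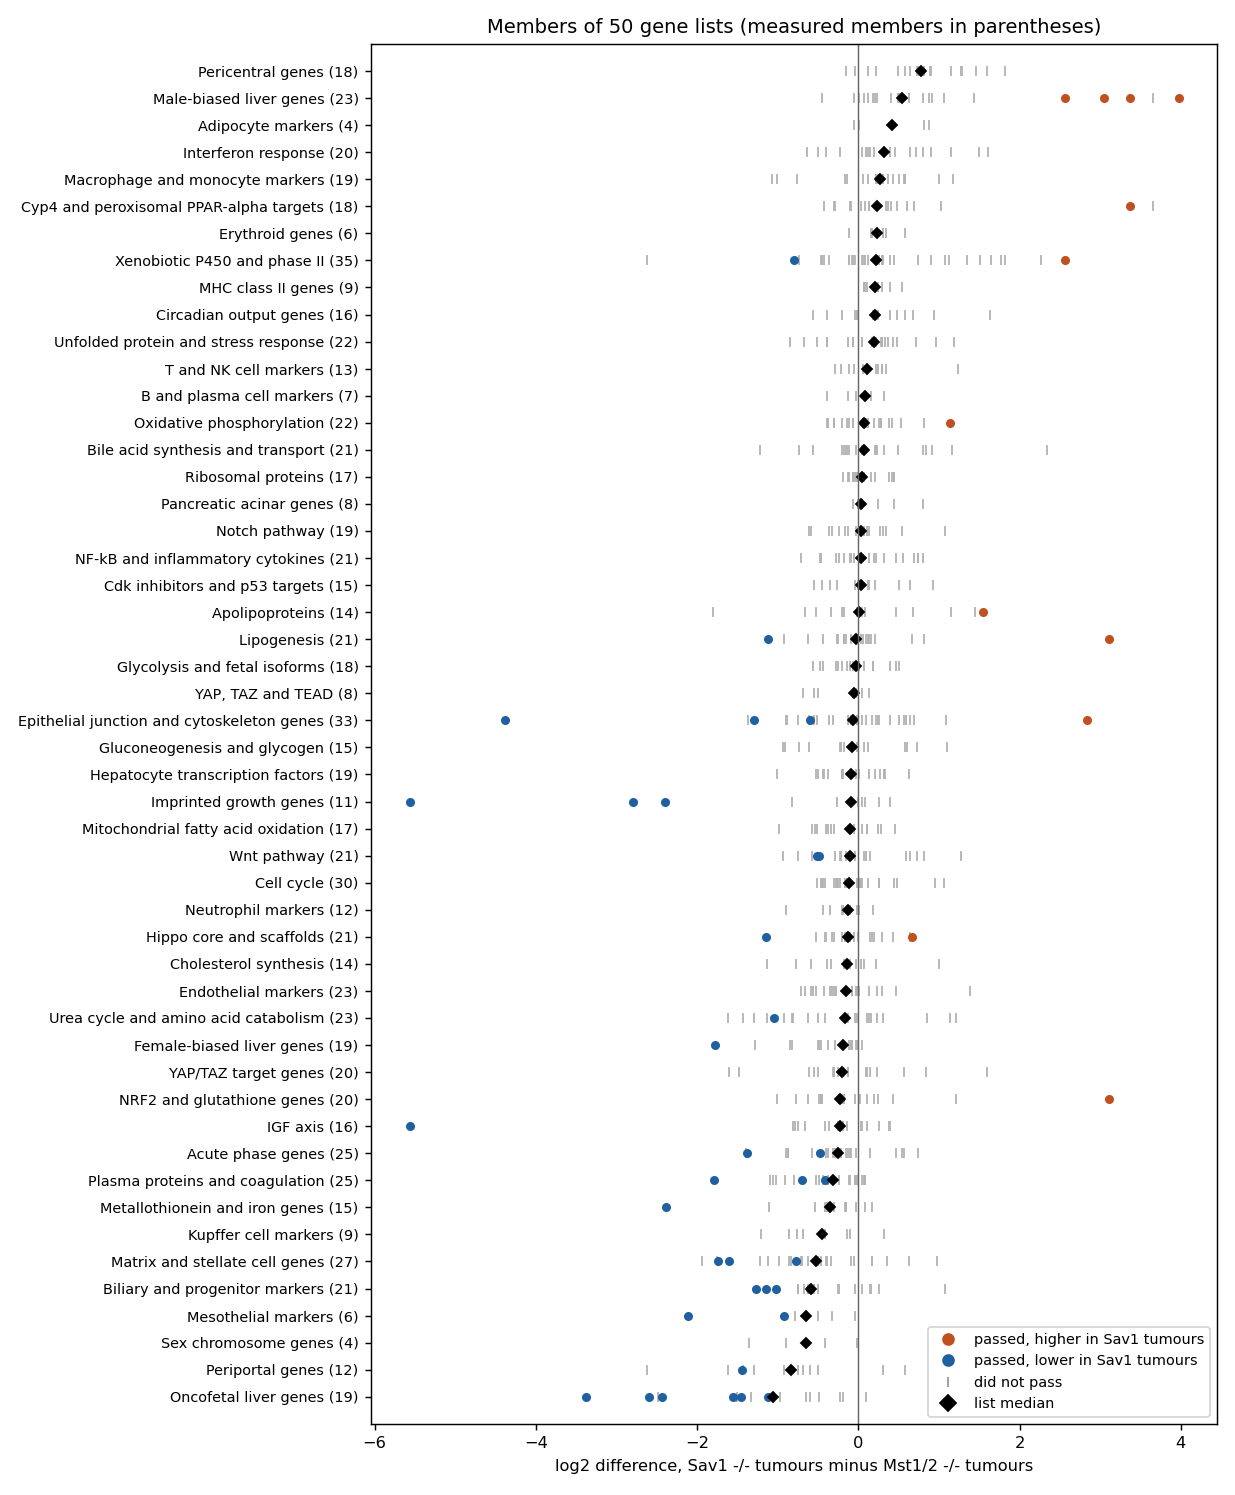
Log2 difference, Sav1 -/- tumours minus Mst1/2 -/- tumours, of every measured member of 50 gene lists, ordered by list median (diamond), with members that passed in orange (higher) or blue (lower) and others as grey ticks. Oncofetal genes have the lowest median (-1.06, 6 lower) and pericentral genes the highest (0.78, with 0 passing).

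Genes of the liver lobule's zones mostly did not pass. Of 18 pericentral genes 16 were positive and 0 passed by limma (0 at an unadjusted p under 0.05), with a median of 0.78; Nt5e, an ectonucleotidase, had 6.84, 9.84 and 12.79 in Sav1 tumours, against 6.79, 6.75, 9.74 and 7.67 in Mst1/2 tumours (adjusted p = 0.27). Of 12 periportal genes 10 were negative and 1 passed (8.33%, all genes 3.68%), with a median of -0.83. That gene was Etnppl, a phosphoethanolamine lyase, which had 6.17, 6.62 and 8.57 in Sav1 tumours, against 8.69, 8.79, 8.69 and 8.82 in Mst1/2 tumours, with no overlap (difference -1.44 ± 0.38, adjusted p = 0.0324). Its call was lost when any 1 Mst1/2 tumour or Sav1 tumour 6 was left out. Asl, a urea cycle enzyme, was the 1 of 23 urea cycle and amino acid genes that passed (4.35%, all genes 3.68%). It differed by -1.05 ± 0.29 (adjusted p = 0.0398 by limma), a call lost without any 1 Mst1/2 tumour or Sav1 tumour 5, 6 or 11.

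Of 25 plasma protein and coagulation genes, 3 were lower (all genes 2.32%), 0 higher and 21 negative, with a median of -0.32; the secreted products Apoc3 and the Mup genes, above, were higher. Pros1, the anticoagulant protein S, had 11.44, 11.86 and 12.24 in Sav1 tumours, against 12.98, 12.55, 12.37 and 12.28 in Mst1/2 tumours, with no overlap (difference -0.70 ± 0.16, adjusted p = 0.0136). Klkb1, plasma prekallikrein, differed by -1.79 ± 0.46 and F2, prothrombin, by -0.42 ± 0.10, and all 3 lost their calls without Mst1/2 tumour 1 or tumour 2. Of 25 acute phase genes, 2 were lower (8%, all genes 2.32% lower). These were Lbp, the endotoxin-binding protein (-1.38 ± 0.34), and Fgb, a fibrinogen chain whose probe was dim (-0.47 ± 0.11). Lbp lost its call without Mst1/2 tumour 1 or 2, and Fgb without tumour 1.

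Shares called in the enzyme lists ran from 0 to 9.52%, against 3.68% of all genes. Of 35 xenobiotic genes (5.71% called), Cyp2d9 was higher and Cyp2c70, a bile acid hydroxylase, lower (-0.80 ± 0.21). Of 21 lipogenic genes (9.52%) Me1 was higher and Scd2 lower. Of 22 oxidative phosphorylation genes Cox7a2, a cytochrome oxidase subunit, was higher (1.14 ± 0.31, adjusted p = 0.0357 by limma). Cyp2c70 and Cox7a2 lost their calls without Mst1/2 tumour 1, 2 or 4, and Cox7a2 also without Sav1 tumour 6. Of 18 Cyp4 and PPAR-alpha target genes (5.56%) Cyp4a12a passed. Its neighbour copy Cyp4a12b, named after its value was seen, did not overlap between the lines but did not pass (3.66 ± 1.09, adjusted p = 0.0548 by limma). Normal livers had Cyp4a12b at 12.3 (Sav1 flox), 7.8 (Mst1/2 flox) and 11.9 (Wt). No gene of cholesterol synthesis (14), bile acid handling (21), fatty acid oxidation (17), gluconeogenesis (15), glycolysis (18) or the hepatocyte transcription factors (19) passed, with 22 members at an unadjusted p under 0.05. In all, 28 of the 50 lists had 0 members called.

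All Sav1 surrounding livers lay in the first and second array sets and all Mst1/2 surrounding livers in the third, so line and array set cannot be told apart outside the tumours, nor in any test that uses these livers. In surrounding livers, 7 Sav1 against 3 Mst1/2 samples, 133 genes (0.922%) passed, 67 higher (0.465%) and 66 lower (0.458%). With the array set as a fixed block, which is estimated from the other groups, the count was 735. With replicate numbers 1 to 3 as pairs it was 850 (337 higher and 513 lower), and without any 1 Mst1/2 surrounding liver it was 20 to 29. Genes that passed in both tissues numbered 25, which is 4.71% of the tumour calls and 18.8% of the surrounding calls. All 25 had the same direction, 10 higher and 15 lower in the Sav1 line. Sav1 tumours 1 to 5 lay in the same array sets as the Sav1 surrounding livers, and the part of array set in this shared direction was not tested. Tsc22d1 was lower in both (-2.37 ± 0.37 in tumours and -2.65 ± 0.44 in surrounding livers), as were Cldn1, Car2, a cytosolic carbonic anhydrase, and Cryab, a small heat shock protein. Spc24, a kinetochore subunit (1.24 ± 0.19 and 1.14 ± 0.22), and Osbpl8, a lipid transfer protein (1.03 ± 0.18 and 0.84 ± 0.21), were higher in both, and Pla2g4b, given as a bound above, passed as higher in both.

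Neighbours of the targeted genes were also counted, since flanking sequence can differ between lines. Of the 100 tested genes nearest to Sav1, 6 passed in tumours, as did 6 of 100 near Stk3 and 5 of 100 near Stk4, where 3.68% of all genes did. Mtdh and Angpt1, both near Stk3, passed in tumours and surrounding livers.

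**Figure D5:**
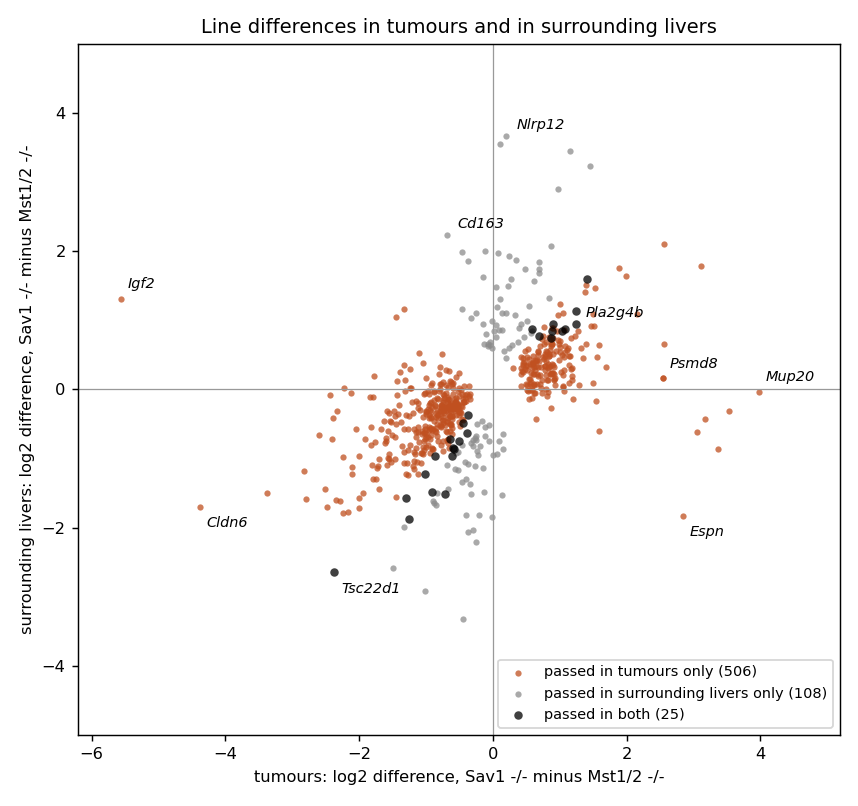
Line difference (Sav1 -/- minus Mst1/2 -/-, log2) in tumours on the horizontal axis and in surrounding livers on the vertical axis, for genes that passed in tumours (orange), surrounding livers (grey) or both (black). The 25 black points share a sign on both axes, and Igf2 and Mup20 differ in tumours with no call in surrounding livers.

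Tumour and surrounding liver differed in 1784 genes (12.4%) in the Sav1 line and in 10 (0.0693%) in the Mst1/2 line, which had fewer arrays. Sav1 tumours 6 to 11 lay in the third array set, which held no Sav1 surrounding liver, so tissue and array set partly coincided in that line. The part of the array set in the 1784 genes was not tested. Whether a line difference in tumours departed from that in surrounding livers was tested as an interaction, which 12 genes (0.0832%) passed, 3 with a higher (0.0208%) and 9 with a lower term (0.0624%), out of 809 at an unadjusted p under 0.05. The largest was Espn, with 4.67 ± 0.83 (adjusted p = 0.0101 by limma), a call lost without Mst1/2 surrounding liver 1 or 2. In tumours Espn averaged 11.71 ± 0.60 (SD, n = 11) in Sav1 and 8.87 ± 2.06 (n = 4) in Mst1/2 samples, and in surrounding livers 8.84 ± 1.08 (n = 7) in Sav1 and 10.66 ± 0.36 (n = 3) in Mst1/2 samples. The terms were negative for Nlrp12, an inhibitory receptor of myeloid cells (-3.47 ± 0.58), and for Cd163 (-2.92 ± 0.55), Timd4 (-2.44 ± 0.50) and Ms4a8a (-2.23 ± 0.37). In the surrounding livers of the Sav1 line Nlrp12 averaged 9.61 ± 1.16 (SD, n = 7), and in those of the Mst1/2 line 5.94 ± 0.07 (SD, n = 3). The normal livers had it at 10.77 (Sav1 flox), 10.60 (Mst1/2 flox) and 11.02 (Wt). Among surrounding livers the Mst1/2 group was thus the further from normal. Cd163, a scavenger receptor of macrophages, averaged 11.16 ± 0.28 (SD, n = 7) outside Sav1 tumours and 8.92 ± 0.15 (SD, n = 3) outside Mst1/2 tumours, against group means of 8.60 to 9.84 in normal livers. In tumours Nlrp12 averaged 6.36 ± 0.28 (SD, n = 11) in Sav1 and 6.16 ± 0.54 (n = 4) in Mst1/2 samples, both also below normal liver. Smc1b, a meiotic cohesin subunit, had a term of -1.35 ± 0.21. Amotl2, a YAP-binding angiomotin, had a term of 1.02 ± 0.19 and 2210407C18Rik 0.94 ± 0.14. Amotl2 averaged 7.23 ± 0.11 (SD, n = 7) outside Sav1 tumours and 8.09 ± 0.15 (SD, n = 3) outside Mst1/2 tumours, against 6.98 to 7.36 as group means of normal livers. For 2210407C18Rik the values were 6.24 ± 0.15, 7.18 ± 0.23 and 6.17 to 6.36 in the same order. For both genes the Mst1/2 surrounding livers were further from normal liver than the Sav1 surrounding livers. In tumours Amotl2 averaged 8.09 ± 0.26 (SD, n = 11) in Sav1 and 7.94 ± 0.28 (n = 4) in Mst1/2 samples, also above normal liver. In the same tumours 2210407C18Rik averaged 6.19 in both lines. Hs3st3a1 and Tcn2, which also passed, were lower in Sav1 tumours (differences of -0.81 and -0.66), as was Scnn1b, whose signal was above background in 0 of 11 of them. Elane, a neutrophil protease, had -0.90 ± 0.18.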

How the data were processed

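Total RNA of mouse livers and tumours was hybridised to bead arrays, and for the 33 arrays the authors deposited intensity values on a linear scale (from BeadStudio per the submitters' processing notes, version not given in the sources used here) as well as log2 values. Quantile normalization of the signals with no background step gave the deposited log2 values, with a largest gap of 0.005. No detection p-values came with the signals, so the planned neqc step was replaced by normexp (offset 50), quantile normalization and log2 in limma 3.58.1 (R 4.3.3). Background per array was the 99th percentile of signals mirrored below the mode. Probes above it on at least 3 arrays and with 1 gene symbol were kept, and the probe of highest mean stood for its gene (14421 genes; 34885 of 45281 probes had 1 symbol, 18 several, 10378 none).

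Group means were fitted in limma to the 33 arrays together (26 residual degrees of freedom). Tests were two-sided at a threshold of 0.05, adjusted across the 14421 genes by Benjamini-Hochberg. Genes named were the targeted genes, the 14 largest differences in each direction among those that passed, up to 4 in each direction seen on every tumour of one line and none of the other, the 5 largest interaction terms in each direction, and in each of the 50 gene lists the members that passed or, failing that, those with the smallest p. Members, lists and tests were chosen with earlier results of these data known. Array sets came from a clustering of the arrays that was cut at a chosen number of 3. For surrounding livers, deviations of equal replicate numbers correlated at 0.20, 0.46 and 0.18, which is why equal numbers were treated as pairs in an alternative fit, although the labels tie no Sav1 sample to an Mst1/2 sample. Single values were compared by exact permutation over the 15 tumours. The fit was tested on simulated data, where 68 of 100 genes changed 2-fold and 97 of 100 changed 4-fold were recovered among 14421. There 9 unchanged genes were also called. The simulated noise was independent, with 1 spread per gene. It held no alike pairs, array sets or unequal spread between lines, so it does not speak for those features of the data. Figures were drawn with matplotlib 3.10.9. Promoter sequences are RefSeq's.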

Additional observations from a re-analysis of the deposited data

Results flagged for a closer look

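Line differences in tumours departed from those in surrounding livers, by a test of the difference itself, for 12 genes. Terms, as the tumour difference minus the surrounding difference on the log2 scale, were 4.67 for Espn, 1.02 for Amotl2, 0.94 for 2210407C18Rik, -3.47 for Nlrp12, -2.92 for Cd163, -2.44 for Timd4, -2.23 for Ms4a8a, -1.35 for Smc1b, -1.03 for Hs3st3a1, -0.92 for Tcn2, -0.90 for Elane and -0.72 for Scnn1b. Scnn1b was above background in 0 of 11 Sav1 tumours, so its term is a fitted value only. 2210407C18Rik was above background in 2 of 11 Sav1 and 0 of 4 Mst1/2 tumours, and Smc1b in 1 and 2. Nlrp12 was so in 4 and 1, and Ms4a8a in 4 and 2, so these terms rest partly on tumour values near background. Line and array set cannot be told apart in the surrounding livers. The call was kept in all 7 fits that left out 1 Mst1/2 array for 4 of the 12, which were 2210407C18Rik, Smc1b, Nlrp12 and Ms4a8a.

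Single samples stood far from the rest of their group by Dixon's test, which flags about 1 group in 20 by chance. How many gene and group combinations were scanned is not given here, so the flags cannot be set against the number that chance alone would give. Sav1 surrounding liver 5 had the highest Igf2 (13.91, the next 9.36), Afp (8.38, the next 6.54) and Bex2 (7.29, the next 6.76) of its group. Mup6 was lowest in Sav1 surrounding liver 2 (12.50, the next 14.58), and Cldn1 was highest in Sav1 surrounding liver 1 (11.33, the next 9.90). Among Mst1/2 tumours, Cox7a2 was highest in tumour 3 (9.74, the next 9.45) and Sfrp1 in tumour 2 (7.27, the next 7.06).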

How the results depend on the processing

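The 531 genes became 92 with the 15 tumours alone, 280 with the 4 knockout groups alone, 154 with Mst1/2 tumours 1 and 2 averaged, 1449 with array weights, 1920 with array set as a fixed block and 1269 with it as a random block. Leaving out 1 tumour at a time gave 168 to 784. Normalization, offset, filter and robust alternatives gave 420 to 595, and the authors' log2 values 517, 516 of them shared. The 133 surrounding genes became 735 with the set block, 850 with the replicate block and 20 to 29 with 1 Mst1/2 liver left out. The 12 interaction genes became 3 under a stricter filter and 5 to 20 with 1 Mst1/2 array left out. The random block, the averaged pair, the knockout groups alone and a fit without Sav1 tumours 7 and 2 (736) were chosen after seeing the data. The cause of these changes was not tested.

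Tumour numbers did not pair the lines (correlations of deviations -0.127, -0.109, 0.299 and -0.260), and the replicate block over tumours 1 to 4 called 0 genes by limma (1431 at an unadjusted p under 0.05). Of 66 genes named as passing, 21 kept their call in all 15 fits without 1 tumour, 19 in the tumours alone and 27 within the third array set, and 0 reversed in any alternative. The median difference over all genes was 0.006 after quantile and -0.007 after median scaling. The 4 Mst1/2 tumours limit precision, and dim probes near the floor understate differences.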
